A study of Mus musculus with 9 samples.

Results

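Fatty acids enter liver cells through membrane proteins, are bound in the cytosol by small binding proteins, and are activated and esterified or oxidized. The 10 genes described here encode proteins of that route: the transporters Cd36, Slc27a1, Slc27a2 and Slc27a4, the lipoprotein receptor Vldlr, the scavenger receptor Msr1, the binding proteins Fabp1, Fabp2 and Fabp4, and the acyltransferase Mogat1. They were chosen by name, and all 10 were found among the 16755 genes of the deposited table. CD36 and VLDLR are known for their induction in fatty liver, where PPARG and PPARA, the nuclear receptors for fatty acids, drive many genes of lipid uptake and oxidation.

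RNA-seq was performed on liver of C57BL/6 mice in 3 groups of 3 mice. All 3 groups carried the floxed Scd2 allele (Scd2f/f). Control liver was from untreated Scd2f/f mice, whose age the labels do not give. Floxed TAL, tumor-adjacent liver by the publication and liver by the labels, was from male Scd2f/f mice injected with 10 mg/kg of diethyl nitrosamine (DEN), a hepatic carcinogen, when 2 weeks old and fed Western alcohol diet (WAD), which is liquid and holds lard, cholesterol and ethanol, from 6 weeks old. WAD was given for 4 months by the labels, and the methods of the publication name a longer period. The sequencing methods of the publication write NTL for the tissue, and its results write TAL. Conditional knockout (cKO) TAL was from male Scd2f/f;Col1a1-Cre mice with the same treatment, which carried a Cre recombinase under the Col1a1 promoter, active in hepatic stellate cells (HSC) and portal fibroblasts and not in hepatocytes. Scd2, the targeted gene, had a mean of 2.46 in control liver, 6.47 in floxed TAL and 1.87 in cKO TAL. The mean of Alb, the hepatocyte albumin gene, was 21300, 20900 and 22700 in the same order, so all groups carried the defining marker of liver.

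Each value below is a group mean as the authors gave it, in counts normalized to the upper quartile. The means carry 3 significant digits. Single mice have no values in this account, so the error of a mean is not known and no test was run. Ratios of means are therefore given as descriptions, beside those of the 11784 genes whose mean over the 3 groups was 1 or more. Of the 10 genes, 9 passed this limit, and all 9 also had a mean above 1 in control liver. Mogat1 did not pass it. A gene was counted where its means differed at least 2-fold. The comparisons share groups: floxed TAL enters the ratios to control liver and those of cKO TAL to floxed TAL.

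RefSeq promoters, from 250 bases before to 50 bases after the start of transcription on GRCm38.p6, were found for 8 of the 10 genes. Fabp4 and Msr1 had none and were not searched. PPAR and RXR bind as a pair to a direct repeat of AGGTCA with 1 base between. The letters AGGTCA, any 1 base (N) and AGGTCA again were searched on both strands with at most 2 mismatches in the 12 fixed letters. Such a match was found for Cd36, Fabp1 and Mogat1, 3 of the 8 genes, and in 4.4% of the 27025 genes with a promoter. The best match of each of these 3 genes is shown. Among the 10 genes, Cd36 and Mogat1 had the highest ratios of floxed TAL to control liver, whereas Fabp1 had the lowest. A link between the matches and the ratios was not tested. Capitals mark the matched bases, and each stretch is written along the strand of its gene.
Fabp1: acaatcacTGACCTATGGCCTatatctga
Cd36: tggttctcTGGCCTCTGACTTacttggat
Mogat1: cagaattcAGGTAAAAAGTCAggctggtg
The Fabp1 stretch lies at chr6:71199804-71199832 on the plus strand, and its match begins 67 bases before the RefSeq start and has 1 mismatch. Matches with at most 1 mismatch were found in 0.644% of genes. The Cd36 stretch lies at chr5:17835939-17835967 on the minus strand, with 2 mismatches and the first matched base 63 bases before the RefSeq start. For both genes the repeat was read on the strand opposite to the gene. The Mogat1 stretch lies at chr1:78511001-78511029 on the plus strand, with 2 mismatches, and its match begins 51 bases before the RefSeq start. The RefSeq starts differ from the outermost starts of the genes in GENCODE M21 and lie inside them by 52 bases for Fabp1, 69 for Mogat1 and 52905 for Cd36. By that annotation the Fabp1 match is upstream of the gene, the Mogat1 match is in the untranslated part of an exon, and the Cd36 match is in introns of the longer transcripts. These matches are descriptions of the letters, and binding was not measured.

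Cd36, Msr1 and Vldlr had at least 2-fold higher means in floxed TAL than in control liver, and Mogat1, below the limit on the mean, was also higher. Means of Fabp2 and Slc27a2 were higher by less than 2-fold. Those of Slc27a4, Slc27a1 and Fabp4 differed by smaller ratios, and only Fabp1 had a lower mean. Thus 3 of the 9 genes were at least 2-fold higher, where 6.4% of all genes were, and 0 of 9 were at least 2-fold lower, where 2.89% of all genes were. The median log2 ratio of the 9 genes was 0.54, and that of all 11784 genes was 0.03. Since the genes were chosen by name with results of these data known, the counts are not a test.

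**Figure D1:**
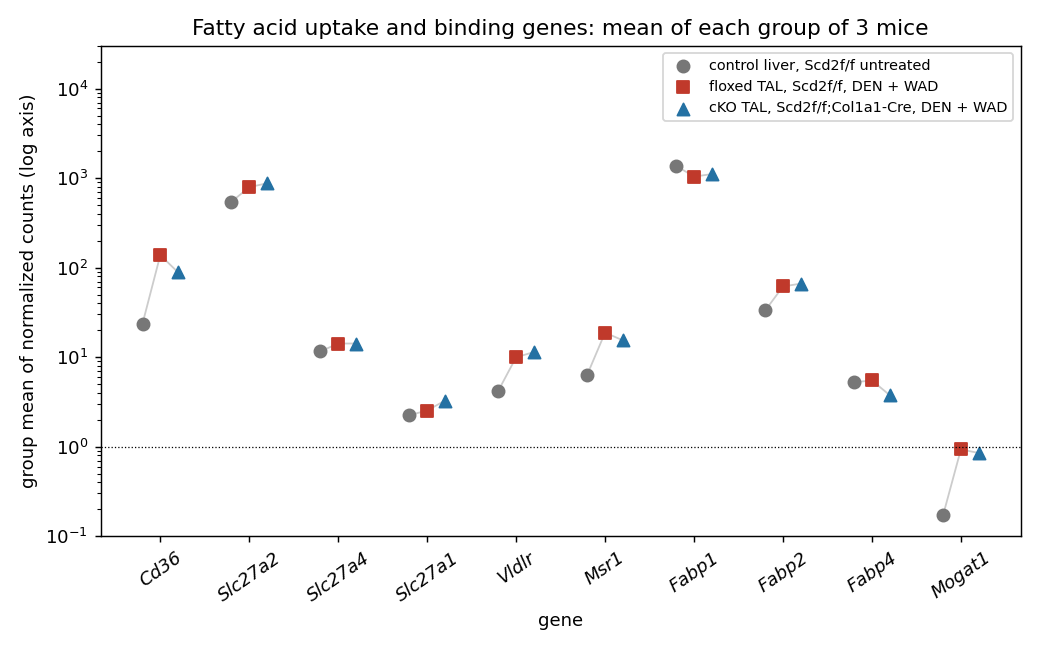
Mean of normalized counts (log axis) of each of the 10 genes in control liver (gray circles), floxed TAL (red squares) and cKO TAL (blue triangles), each a mean of 3 mice, with no error available. Cd36 stands at 23.7, 138 and 88.5, and Mogat1 is the only gene with all 3 means under 1 (dotted line).

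CD36, a scavenger receptor and translocase for long-chain fatty acids, is expressed by macrophages, endothelial cells and adipocytes, and by hepatocytes of fatty liver. The Cd36 gene spans chr5:17781690-17888801 on the minus strand of GRCm38. Its mean was 23.7 in control liver, 138 in floxed TAL and 88.5 in cKO TAL. Floxed TAL was thus highest, and cKO TAL lay between the other groups. The ratio of floxed TAL to control liver was 5.82, and 0.416% of all genes had a ratio as high. The mean in cKO TAL was 0.641 times that in floxed TAL, with 4.1% of genes as low, and 3.73 times that in control liver.

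The Slc27a genes encode fatty acid transport proteins, which also act as acyl-CoA synthetases. Slc27a2, which encodes the very long-chain acyl-CoA synthetase FATP2 of hepatocytes and kidney, spans chr2:126552407-126588243. Its mean was 545 in control liver, 793 in floxed TAL and 876 in cKO TAL. The ratio of floxed TAL to control liver was 1.46, and both TAL groups were above control liver. Slc27a4 (chr2:29802634-29817522) encodes FATP4, a transporter of many tissues known for its part in the skin barrier. Its mean was 11.6 in control liver and 14.2 in each TAL group, the one gene of the 10 with the same mean in both at 3 digits. Slc27a1 (chr8:71568882-71587302) encodes FATP1, known from muscle and fat. Its mean was 2.25 in control liver, 2.53 in floxed TAL and 3.27 in cKO TAL, and its ratio of 1.29 between the TAL groups was the highest of the 10 genes. A ratio as high was found in 6.48% of all genes.

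VLDLR takes up triglyceride-rich lipoproteins that carry apolipoprotein E. Vldlr (chr19:27216484-27254231, plus strand) had a mean of 4.22 in control liver, 9.97 in floxed TAL and 11.4 in cKO TAL. Both TAL groups were higher, by ratios of 2.36 and 2.70 to control liver, and cKO TAL was 1.14 times floxed TAL. A ratio to control liver as high was found in 4.58% of genes for floxed TAL and in 2.09% for cKO TAL. Msr1 (chr8:39581685-39642673, minus strand) encodes the class A scavenger receptor of macrophages, which binds modified lipoproteins. Its mean was 6.39 in control liver, 18.8 in floxed TAL and 15.4 in cKO TAL. The ratios to control liver were 2.94 and 2.41, and cKO TAL was 0.819 times floxed TAL.

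FABP1, the liver binding protein, is among the most abundant cytosolic proteins of hepatocytes. Fabp1 (chr6:71199827-71205023, plus strand) had a mean of 1370 in control liver, 1040 in floxed TAL and 1110 in cKO TAL. Control liver was highest, and the ratios of the TAL groups to it were 0.759 and 0.810. The ratio of cKO TAL to floxed TAL was 1.07, and 32.9% of all genes had a ratio as high. FABP2 is best known from enterocytes, and Fabp2 (chr3:122895072-122899506) was nevertheless measured at means of 33.2, 61.6 and 66.3 in the same order. Its ratio of floxed TAL to control liver was 1.86, just under the limit of 2. That of cKO TAL to control liver was 1.997, and the rounding of the means leaves it between 1.992 and 2.002, on either side of the limit. Apoa4, listed with enterocyte markers but also expressed by mouse liver, had a mean of 161, 409 and 176 in the same order. The other enterocyte markers listed, Vil1, Alpi, Sis, Lct and Cdx2, were not analysed here. The cells that gave rise to the Fabp2 values were not tested.

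FABP4, the binding protein of adipocytes, is also made by macrophages and capillary endothelium. Fabp4 (chr3:10204088-10208576, minus strand) had a mean of 5.24 in control liver, 5.49 in floxed TAL and 3.76 in cKO TAL. The control and floxed TAL means differed by a ratio of 1.05, and cKO TAL was lowest, at 0.685 times floxed TAL and 0.718 times control liver. A ratio of the TAL groups as low was found in 5.45% of genes. MOGAT1 acylates monoacylglycerol to diacylglycerol and is known for its induction in steatosis. Mogat1 (chr1:78510991-78538173, plus strand) had a mean of 0.172 in control liver, 0.931 in floxed TAL and 0.85 in cKO TAL. These are the lowest means of the 10 genes, and the ratios to control liver, 5.41 and 4.94, rest on them. The log2 ratio of floxed TAL to control liver was 2.44 for Mogat1, or 0.72 after 1 was added to each mean.

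Between the TAL groups, 0 of the 9 genes that passed the limit on the mean were at least 2-fold higher in cKO TAL, where 0.645% of all genes were, and 0 were at least 2-fold lower, where 1.54% of all genes were. The largest differences were the lower means of Cd36 and Fabp4, 35.9% and 31.5% lower in cKO TAL, and the higher mean of Slc27a1. Msr1 was 18.1% lower. Slc27a2, Fabp1 and Fabp2 differed by ratios from 1.07 to 1.10. With 71.9% of all genes within 0.25 of equal means on the log2 scale, the latter 3 ratios are in the range of most genes. Compared with control liver, Cd36, Vldlr and Msr1 were again at least 2-fold higher in cKO TAL, 3 of the 9 genes, where 4.51% of all genes were, and 0 of 9 were at least 2-fold lower, where 2.55% of all genes were.

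**Figure D2:**
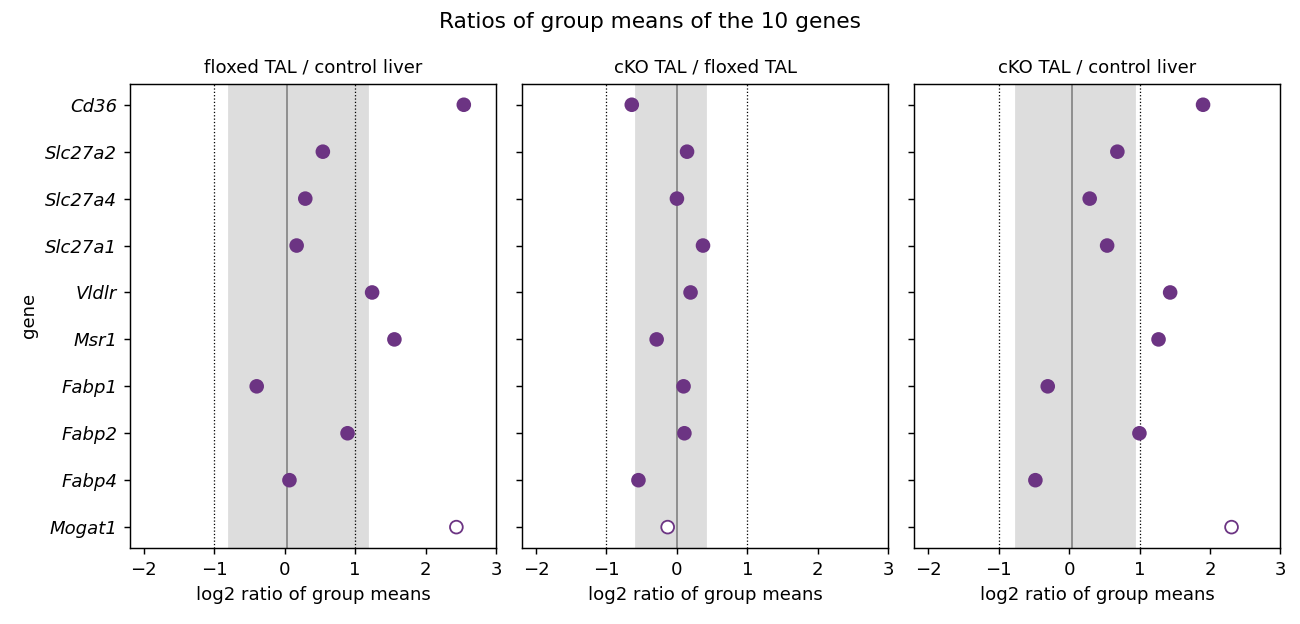
Log2 ratio of group means of each gene in the 3 comparisons (filled circles, or an open circle for Mogat1, whose mean was under 1), with the middle 90% of 11784 genes shaded, their median as a gray line and 2-fold limits dotted. Cd36, Msr1 and Vldlr lie past the upper limit in both comparisons with control liver, and no gene lies past a limit between the TAL groups.

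Per kilobase of coding length, Fabp1 had the highest level of the 10 genes in each group, 3600 normalized counts per kilobase in control liver, 2730 in floxed TAL and 2910 in cKO TAL. Slc27a2 was next with levels of 293, 426 and 471 per kilobase, and then Fabp2 with 83.8, 156 and 167. Cd36 was the fourth in each group, with 16.7 per kilobase in control liver, 97.5 in floxed TAL and 62.5 in cKO TAL. Fabp4 and Msr1 were near each other in floxed TAL, at 13.9 and 13.7 per kilobase, and Msr1 was above Fabp4 in cKO TAL, at 11.2 against 9.49. In control liver the level of Fabp4, 13.2 per kilobase, was above that of Msr1, 4.65. Slc27a4, Vldlr, Slc27a1 and Mogat1 had levels from 7.36 down to 0.926 per kilobase in floxed TAL. Which neighbours in this order differ beyond the spread between mice is not known from group means. With merged exonic length in place of coding length, an alternative chosen after the data were seen, the first 4 places were the same, and 2 pairs exchanged places: Fabp4 stood above Msr1 in cKO TAL, and Slc27a1 above Vldlr in control liver.

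Macrophage and other cell type markers were measured in the same tissue, since Cd36, Msr1 and Fabp4 are also genes of macrophages and endothelial cells. In bulk liver, more cells of a type and more RNA per cell cannot be told apart. All 6 Kupffer cell markers were at least 2-fold higher in floxed TAL than in control liver, where 6.4% of all genes were. They were Clec4f, Vsig4, Timd4, Adgre1, Cd5l and C1qa. Their summed means were 70.6 in control liver, 259.4 in floxed TAL and 231.5 in cKO TAL. Cd5l was the most abundant, with means of 22.9, 114 and 99. The 8 markers of recruited macrophages (Itgax, Lyz2, Csf1r, Trem2, Gpnmb, Ccr2, Cd68 and Ms4a7) were each at least 2-fold higher in floxed TAL without a limit on the mean, where 9.37% of all 16755 genes were, with summed means of 44.9, 196.3 and 127.6. Trem2 and Ms4a7 had a mean over the 3 groups under 1, and Itgax, Gpnmb and Ccr2 had means of 0.235, 0.0937 and 0.564 in control liver. Itgax and Ccr2 passed this limit only through the TAL groups, and Gpnmb only through floxed TAL. Lyz2, the lysozyme gene, and Csf1r, the receptor of macrophage colony-stimulating factor, made up most of the sum, with means of 24.9, 107 and 63.7 for Lyz2. Between the TAL groups, the sum in cKO TAL was 0.893 times that in floxed TAL for the Kupffer cell list and 0.65 times for the recruited macrophage list. Lyz2, Csf1r and Cd68 are not restricted to recruited macrophages, nor are Adgre1 and C1qa to Kupffer cells. The 2 sums therefore do not separate these cells. Of the Kupffer cell markers, 2 had a higher mean in cKO TAL, Timd4 at a ratio of 1.23 and Clec4f at 1.01, and the others were lower. The single markers of recruited macrophages differed widely around the ratio of their sum. Gpnmb was 14.1-fold lower and Itgax 3.27-fold lower in cKO TAL, with means of 8.98 and 0.638 for Gpnmb and of 3.66 and 1.12 for Itgax, whereas Csf1r had a ratio of 0.88. Without a limit on the mean, Itgax, Gpnmb, Trem2 and Ms4a7, 4 of the 8, were at least 2-fold lower in cKO TAL, where 4.07% of all genes were, each with a mean of at most 1.12 in control liver and in cKO TAL. Cd68 is in this list and in that of scavenger receptors. The part of these cells in the means of Cd36 and Msr1 was not tested.

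Hepatocyte markers summed to 33020 in control liver, 29670 in floxed TAL and 33480 in cKO TAL, with Alb the most abundant. Of these 8 markers, Tat alone was at least 2-fold lower in floxed TAL than in control liver, where 2.89% of all genes were. Its means were 499, 181 and 305. The 9 endothelial markers summed to 120.8, 162.8 and 163.5, with Stab2 the most abundant. Cdh5 and Lyve1 were at least 2-fold higher in floxed TAL than in control liver, where 6.4% of all genes were. This count was over the 8 with a mean of at least 1. Lyve1 had means of 2.6, 6.6 and 3.44. The 8 markers of HSC and portal fibroblasts, the cells in which Cre is expressed, summed to 193.9, 319.1 and 188.4, with Dcn the most abundant. Of these, 3 (Col1a1, Col3a1 and Pdgfrb) were at least 2-fold lower in cKO TAL than in floxed TAL, where 1.54% of all genes were. Col1a1 had means of 4.69, 19.6 and 4.51. The other markers of this list were lower by less than 2-fold, with ratios from 0.525 for Fbln2 to 0.842 for Lrat. Of the adipocyte markers, Cidec and Cfd were measured, while Adipoq, Plin1, Lep and Retn were not analysed here. Stab2 is also in the list of scavenger receptors, Gpihbp1 in that of lipases and Hnf4a in that of regulators. The part of these cell types in the values of Fabp4, Vldlr and Slc27a1 was not tested.

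**Figure D3:**
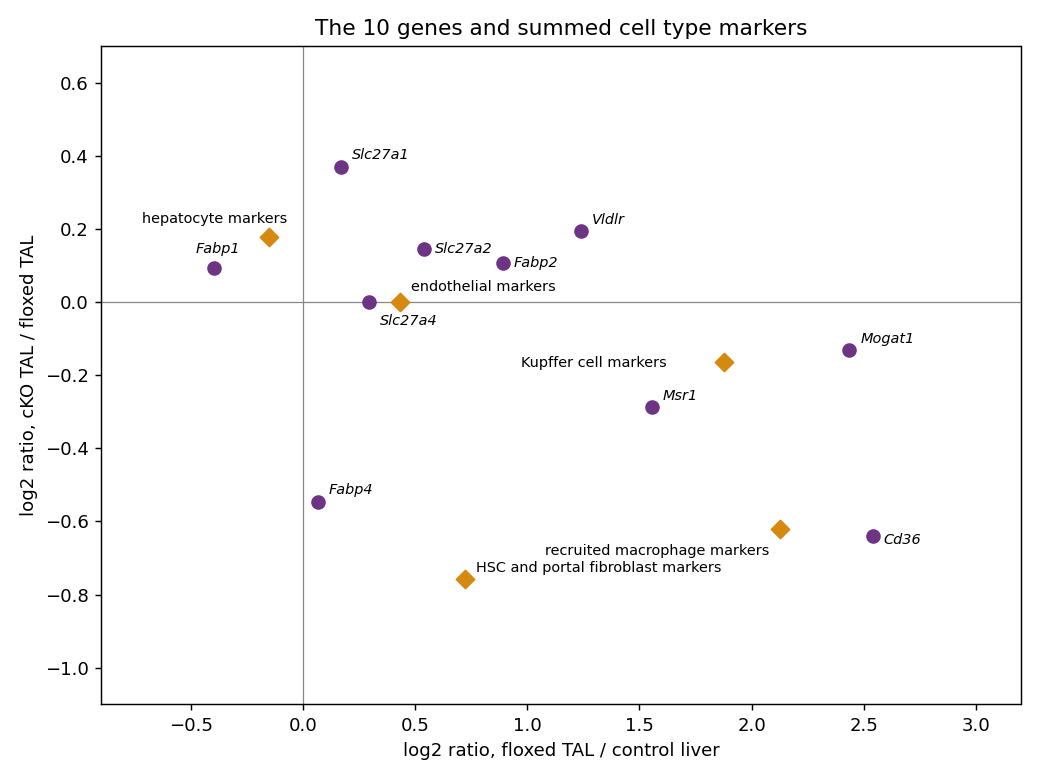
Log2 ratio of floxed TAL to control liver (horizontal axis) and of cKO TAL to floxed TAL (vertical axis) for each of the 10 genes (circles) and for the summed means of 5 lists of cell type markers (diamonds). Floxed TAL enters both axes. Each diamond follows the most abundant markers of its list, and single markers lie far from it, as Gpnmb does for recruited macrophages with log2 ratios of 6.58 and -3.82.

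Cd36 had the widest range of means on the log2 scale among the 9 genes, and the 5 genes with the most similar pair of log2 ratios over the 3 group means were Plek, Itgb2, Tgtp1, Hcls1 and Aoah. Their distances from Cd36 ran from 0.03 to 0.10 on the log2 scale. Plek, which encodes pleckstrin, had means of 1.90 in control liver, 11.0 in floxed TAL and 6.91 in cKO TAL. Itgb2, which encodes the beta chain of leukocyte integrins, had means of 2.36, 14.1 and 9.29 in the same order. Tgtp1, Hcls1 and Aoah had ratios of floxed TAL to control liver from 5.74 to 6.23, and Hcls1 and Aoah, with means of 0.949 and 0.321 in control liver, passed the limit on the mean only through the TAL groups.

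Among 11 genes of lipases and lipoprotein receptors, Lpl alone was at least 2-fold higher in floxed TAL than in control liver, a share near the 6.4% of all genes, and 0 were lower. LPL, lipoprotein lipase, releases fatty acids from triglyceride-rich lipoproteins. Its means were 16.3 in control liver, 83.6 in floxed TAL and 66.2 in cKO TAL, a ratio of 5.13 between the first pair. Lrp1, an uptake receptor for lipoprotein remnants, had means of 568, 896 and 989. Angptl8, an inhibitor of lipase activity, had means of 17.7, 21.1 and 13.9, and Lipg, endothelial lipase, of 11.1, 7.45 and 6.86. The median log2 ratio of the list was 0.25 against control liver and 0.09 between the TAL groups, where 0 of 11 genes were past 2-fold.

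Of 12 other genes of fatty acid transport and activation, 8 were measured, and Acsl4 was at least 2-fold lower in floxed TAL, as 2.89% of all genes were. ACSL4 activates arachidonic acid and other polyunsaturated fatty acids. Its means were 198 in control liver, 62.2 in floxed TAL and 64.5 in cKO TAL, 3.18-fold lower in floxed TAL than in control liver. Acsl3 had means of 16, 8.56 and 9.33. Acsl1, the main acyl-CoA synthetase of liver, had means of 532, 558 and 806, and Mfsd2a, a transporter of lysophosphatidylcholine, of 8.09, 11.7 and 7.68. Slc27a5, the FATP of liver that also activates bile acids, had means of 303, 319 and 390. Its list held 0 genes past 2-fold between the TAL groups, and its median log2 ratio against control liver was 0.07.

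Means of other binding proteins differed in both directions. Of 5 with a mean of at least 1, Fabp7 was at least 2-fold higher and Fabp5 at least 2-fold lower in floxed TAL than in control liver. Of all genes, 6.4% were at least 2-fold higher and 2.89% at least 2-fold lower. Fabp7, the brain binding protein, had means of 0.818, 2.83 and 2.52, and passed the limit only through the TAL groups. Fabp5, the epidermal one, had means of 16.4, 6.19 and 8.14. Fabp3, the binding protein of heart and muscle, had a mean under 1 and was named after its values were seen, which were 0.921 in control liver, 0.0829 in floxed TAL and 0.0458 in cKO TAL. Dbi, which encodes the acyl-CoA binding protein, had means of 323, 246 and 189. Scp2, a sterol and fatty acyl-CoA carrier, had means of 1630, 2110 and 2180. Beside Fabp1, Fabp2 and Fabp4, the family thus held members with a higher and members with a lower mean in both TAL groups than in control liver. The median log2 ratio of the 5 genes was 0.05 both against control liver and between the TAL groups.

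Of 11 other scavenger receptors, 10 had a mean of at least 1, and 4 of these were at least 2-fold higher in floxed TAL than in control liver, namely Marco, Cd68, Scara3 and Cxcl16, where 6.4% of all genes were. Marco, a class A receptor of macrophages like Msr1, had means of 0.87, 14.6 and 10.7, a ratio of 16.8 between floxed TAL and control liver, and like Fabp7 passed the limit only through the TAL groups. Cd68, a receptor of macrophage lysosomes, had means of 1.64, 8.87 and 5.66. Scara5, a ferritin receptor of mesenchymal cells, was the one at least 2-fold lower, as 2.89% of all genes were, with means of 9.98, 3.22 and 2.28. Scara3 was the one past 2-fold between the TAL groups, with means of 1.46, 3.92 and 0.918, and was 4.27-fold lower in cKO TAL, where 1.54% of all genes were at least 2-fold lower. The median log2 ratio of the list was 0.42 against control liver and -0.24 between the TAL groups. Of the other acyltransferases beside Mogat1, Dgat1 had means of 5.23, 6.25 and 5.82 and Dgat2 of 156, 115 and 145, and Mogat2 was not analysed here.

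Of 10 transcriptional regulators, Pparg alone was at least 2-fold higher in floxed TAL than in control liver, a share near the 6.4% of all genes. Its means were 4.01 in control liver, 9.28 in floxed TAL and 7.17 in cKO TAL. Ppara had means of 79, 80.7 and 104. Srebf1, the regulator of fatty acid synthesis, had means of 60.3, 67.7 and 108, and Nfe2l2, which encodes NRF2, of 29.6, 44.6 and 39.7. The median log2 ratio of the regulators was 0.04 against control liver and 0.06 between the TAL groups, with 0 of 10 past 2-fold in the latter.

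Of 6 steatosis genes linked to PPARG with a mean of at least 1, Plin2, Plin4 and Cfd were at least 2-fold higher in floxed TAL than in control liver, where 6.4% of all genes were. Plin2, which coats lipid droplets, had means of 130, 269 and 273. Plin4, a droplet protein of adipocytes, had means of 3.36, 22.6 and 13, and Cfd, adipsin, of 0.688, 12.9 and 15.1. Cfd thus passed the limit on the mean only through the TAL groups, where it was high, and its place in the count and the median rests on that. Cidec, which promotes fusion of lipid droplets, was the one past 2-fold between the TAL groups, with means of 8.85, 14.3 and 5.56. Its ratio of cKO TAL to floxed TAL was 0.389, and 1.54% of all genes were at least 2-fold lower in cKO TAL. The median log2 ratio of the list was 0.87 against control liver and -0.13 between the TAL groups.

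All 12 PPARA targets had a higher mean in floxed TAL than in control liver, and 6 were at least 2-fold higher, where 6.4% of all genes were. Cyp4a14, a fatty acid omega-hydroxylase, had means of 32.9, 158 and 137, and Cyp4a10, of the same family, of 54.8, 217 and 236. Vnn1, pantetheinase, had means of 19.4, 76.7 and 67.5. Fgf21, which encodes a hepatokine, had means of 0.167, 4.19 and 1.53 and was the one target past 2-fold between the TAL groups. It was lower in cKO TAL, where 1.54% of all genes were at least 2-fold lower. Fgf21 passed the limit on the mean only through the TAL groups. The list had a median log2 ratio of 0.92 against control liver, beside 0.03 for all genes, and 0.07 between the TAL groups, beside 0.01. Fabp1 is a textbook target of PPARA as well, and its mean was lower in both TAL groups than in control liver.

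**Figure D4:**
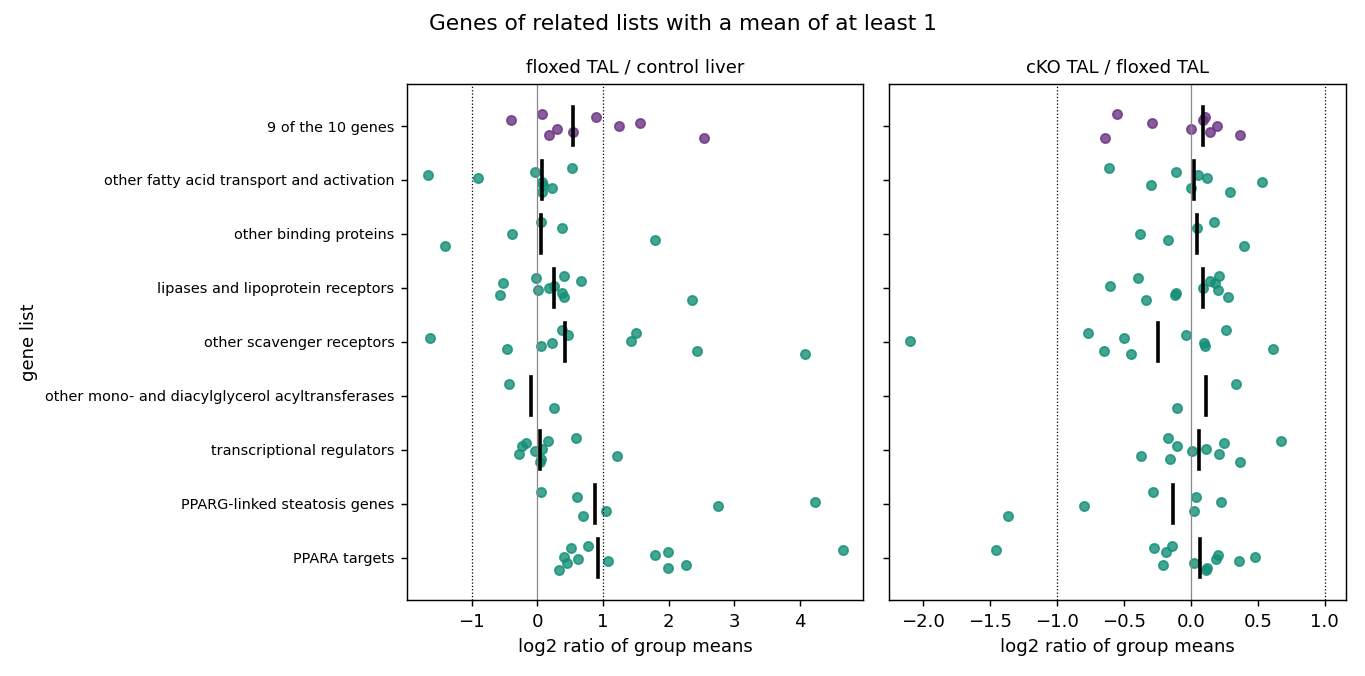
Log2 ratio of floxed TAL to control liver (left) and of cKO TAL to floxed TAL (right) for 9 of the 10 genes (purple) and the genes of 8 related lists (green), each with a mean of at least 1, with list medians as black bars and 2-fold limits dotted. The PPARA targets all lie above 0 on the left, with a median of 0.92, and have a median of 0.07 on the right, where Fgf21 lies past the lower limit at -1.45.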

How the data were processed

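Per the labels, polyadenylated RNA of 9 livers was sequenced from TruSeq v2 libraries. The submitters' processing notes name STAR 2.6.1, Partek 6 and mm10. The authors quantified reads per gene on Gencode M3 by the Partek E/M method and normalized them to the upper quartile. The signal in the deposited table is the authors' least-squares mean of each group. Its p-values, FDR, ratios and fold changes of 2 comparisons hold the authors' own findings and were not used. The depth of each sample is unknown.

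Ratios of means were computed without a pseudocount for 16755 genes (16753 symbols), and described for 11784 whose mean over the 3 groups was 1 or more. A fold of at least 2 was counted. No test was run. Genes were matched to GENCODE M21 (GRCm38) by symbol. For all 10 genes the start was identical and the table's end was 1 base higher, and the GENCODE end is given. Coding length is that of the longest coding sequence. Protein sequences were not used here. An item of the list of other binding proteins is not reported here and was left out of its count and median.

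The 10 genes and the lists were chosen with earlier results of these data known. Named from each related list were up to 4 genes that passed this limit and had the largest absolute log2 ratio in either comparison with floxed TAL, and Pparg and Ppara. Slc27a5, Scd2 and marker genes beyond the most abundant were named after their values were seen. Alternatives were pseudocounts of 0.1 and 1, centring, scaling to the 75th percentile, fold limits of 1.5 and 3, and limits on the mean of 0 and 10. The counting and the motif search were tested on simulated data. Python 3.11.15, NumPy 2.4.6, pandas 2.3.3 and Matplotlib 3.10.9 were used.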

Additional observations from a re-analysis of the deposited data

How the results depend on the processing

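Centring and scaling to the 75th percentile moved each of the 30 log2 ratios of the 10 genes by less than 0.1, a pseudocount of 0.1 moved 2 of them by more, and a pseudocount of 1 moved 7. No ratio past 2-fold changed its sign under these settings. Counts of genes past the limit changed most with the limit itself. With a fold limit of 1.5, 1 gene (Cd36, lower) was counted between the TAL groups in place of 0, and 5 in place of 3 for cKO TAL against control liver. With a fold limit of 3, only Cd36 was counted in either TAL group against control liver, 1 gene in place of 3. Under the other settings these counts ran from 2 to 4 against control liver and remained 0 between the TAL groups. No paired analysis was possible because the table holds means of groups, and for the same reason no replicate could be left out. Depth is unknown, and means under 1, as for Mogat1, carry ratios that depend on the pseudocount.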

Other observations

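Some markers of blood and bile duct cells also differed between the groups. The 4 erythroid genes summed to 255 in control liver, 96.8 in floxed TAL and 172.3 in cKO TAL. Hbb-bs, a beta globin, was the most abundant, with means of 163, 46.2 and 98.8, 3.53-fold lower in floxed TAL than in control liver and 2.14-fold higher in cKO TAL than in floxed TAL. Of the 4 genes, 3 were at least 2-fold lower in floxed TAL than in control liver, where 2.89% of all genes were. In cKO TAL, 2 were at least 2-fold higher than in floxed TAL, where 0.645% of all genes were. Alas2 had ratios of only 0.761 and 1.11 in these comparisons. Of 7 genes of T and B lymphocytes, only Ptprc, which all leukocytes express, had a mean of at least 1, with means of 5.82, 27.2 and 19. The 6 cholangiocyte markers summed to 59 in control liver, 53.9 in floxed TAL and 19.2 in cKO TAL. Spp1, osteopontin, made up most of this sum, with means of 52.3, 45.1 and 14.8, and Krt7, Krt19 and Cftr had a mean under 1. Without a limit on the mean, 5 of the 6, all but Sox9, were at least 2-fold lower in cKO TAL than in floxed TAL, where 4.07% of all genes were. Ratios of floxed TAL to control liver went both ways, from 0.669 for Krt7 to 2.38 for Cftr.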
